A study of Homo sapiens with 8 samples.

Results

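PPP1R12C and the genes around it on the long arm of chromosome 19 were examined in K562, an erythroid-like human line from a patient with chronic myeloid leukaemia. The genes were taken by position: all with a start from 54300000 to 55900000 on chromosome 19 (hg38), without those named ZNF, RPL or RPS. This gave 86 of the 35805 genes listed, 38 on the centromeric side of PPP1R12C and 47 on the telomeric side. The span was set around PPP1R12C because an intron of that gene holds AAVS1, the site to which the control guide of the series is directed.

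All 8 libraries came from K562 cells with dCas9-KRAB, in 4 groups of 2. Untransduced cells had no guide, sgAAVS1 cells had the control guide, and sg1-IRF2 and sg2-IRF2 cells each had a guide to IRF2, a transcription factor gene. Cells with a guide were taken 7 days after transduction. Whether the cells are 1 clone, which promoter drives dCas9-KRAB, and whether the 2 libraries of a group are separate cultures is not given in the sources used here, so p-values measure the spread between these libraries, which may be technical. The sequence and exact position of the control guide are likewise not used here.

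In CRISPR interference a dead Cas9 that cannot cut carries the KRAB repressor domain to the sequence matched by the guide. KRAB recruits TRIM28 and with it enzymes that methylate histone H3 at lysine 9, and repression is strongest when the guide lies close to a transcription start. AAVS1 is the place where adeno-associated virus preferentially integrates, and it is widely used as a "safe harbour" for transgenes and as a target for control guides. PPP1R12C, also called MBS85, belongs to the family of myosin-targeting subunits that direct the catalytic subunit of protein phosphatase 1 to myosin light chains. Its neighbours include a gene cluster for immunoglobulin-like receptors of leukocytes, NLRP genes of innate immunity and troponin genes of striated muscle.

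PPP1R12C (ENSG00000125503) lies on the minus strand of chromosome 19 from 55090913 to 55117559. Its longest GENCODE 29 transcript has 22 exons. Exon 1 spans 55117223 to 55117559 (337 bases), and the first intron follows from 55112796 to 55117222 (4427 bases). The 250 bases before its RefSeq start (GRCh38.p14) are shown because the control guide is directed to this gene, beside the same window of EPS8L1, the closest tested neighbour. Both are written 5′ to 3′ on the gene's strand, PPP1R12C from chr19:55117638-55117887 on the minus strand and EPS8L1 from chr19:55075619-55075868 on the plus strand, which is 1 of 2 EPS8L1 windows in the table. Capitals mark GGGCGG or its complement CCGCCC, TGACGTCA and, had they occurred, TATAAA.
PPP1R12C: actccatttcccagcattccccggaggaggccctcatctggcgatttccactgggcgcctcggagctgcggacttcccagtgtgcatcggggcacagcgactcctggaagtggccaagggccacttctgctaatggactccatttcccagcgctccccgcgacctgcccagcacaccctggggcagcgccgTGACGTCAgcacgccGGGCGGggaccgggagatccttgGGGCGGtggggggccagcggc
EPS8L1: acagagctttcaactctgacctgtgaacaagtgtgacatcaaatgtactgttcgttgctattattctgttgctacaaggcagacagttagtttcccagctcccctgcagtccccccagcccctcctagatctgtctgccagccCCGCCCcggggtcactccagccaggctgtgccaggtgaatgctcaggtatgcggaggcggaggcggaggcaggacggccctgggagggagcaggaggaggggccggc
The PPP1R12C window held 19 CpG dinucleotides, 68.4% G or C, 2 GGGCGG and 1 TGACGTCA. The EPS8L1 window held 8 CpG, 60.4% G or C and 1 GGGCGG, and that of TNNT1, the closest tested gene on the other side, 7 CpG, 66.8% G or C, 2 GGGCGG and 1 TATAAA. None of these windows held the core of an interferon response element (GAAA, any 2 bases, GAAA). Over all 35116 windows of 27305 genes, searched on both strands, 42.6% held GGGCGG, 1.65% TGACGTCA, 10.7% TATAAA and 3.02% that core, with a median of 11 CpG. In the 41 windows of 30 tested genes of the span these shares were 73.2%, 12.2%, 7.32% and 2.44%, with a median of 14 CpG. The 2 sets are unlike, since the larger one also holds genes that did not pass the filter on low values. Whether the span differs from other tested genes was not tested. TGACGTCA was added to the search after the PPP1R12C sequence had been seen. These matches describe letters and were not tested for binding.

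Depth ran from 5248359 to 6738348 recovered reads per library. Between the libraries of a group, the chi-square of the reads divided by its degrees of freedom was 0.659 to 0.820 in the other 3 groups and 1.66 with sgAAVS1, where counting noise alone gives about 1. The other 3 groups thus varied by less than counting noise alone gives, and whether their libraries are independent was not tested. Most of the residual degrees of freedom of the main fit come from these groups, so its p-values may be too small. The fit was also made with the libraries of each averaged to 1. In that fit the residual spread comes from the 2 sgAAVS1 libraries alone (1 degree of freedom), and each averaged group is assumed to vary like them. IRF2 had 4 and 8 reads with sg1-IRF2, 22 and 21 with sg2-IRF2 and 196 to 291 in the other 4 libraries, as the labels say. All 15 K562 and erythroid markers passed the filter on low values, with 10646 to 12555 summed reads per library. Of 4 natural killer cell markers 0 passed, with 0 to 7 summed reads, and NCAM1 and GNLY had none. Of the other lists, lymphoid (2 of 7 tested, CD8A and MS4A1 at 0, summed reads 231 to 294), monocyte and granulocyte (2 of 5, 384 to 530) and adherent line markers (6 of 8, 4210 to 4952) each had their lowest sum in an sgAAVS1 library. These are raw reads, and the erythroid list had both its lowest and its highest sum in an sgAAVS1 library. On the log2 scale HBZ, an embryonic globin, and ALAS2, the first enzyme of haem synthesis in erythroid cells, were higher with sgAAVS1 than in untransduced cells (0.38 ± 0.099 and 0.31 ± 0.066, SE; limma adjusted p = 0.0245 and 0.00473). Both were also higher with sg1-IRF2 than in untransduced cells (0.34 and 0.42, limma adjusted p = 0.0288 and 0.000135). ITGAM, an integrin of myeloid cells, was lower with sgAAVS1 (-0.40 ± 0.11; limma adjusted p = 0.0306) and with sg2-IRF2 (-0.49, limma adjusted p = 0.0164) than in untransduced cells. No other tested marker was called between sgAAVS1 and untransduced cells. Against sg1-IRF2 the collagen gene COL1A1 was higher with sgAAVS1 (0.45 ± 0.092; limma adjusted p = 0.00716). COL1A1 was itself lower with sg1-IRF2 than in untransduced cells (-0.42, limma adjusted p = 0.00474). COL1A2, the other collagen gene of that list, was lower than in untransduced cells with sg1-IRF2 (-0.90, limma adjusted p = 0.00215) and sg2-IRF2 (-0.82, limma adjusted p = 0.0148). With sgAAVS1 it differed from untransduced cells by -0.31 and was not called (limma adjusted p = 0.376). The part of these markers in the other results was not tested.

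PPP1R12C RNA was lower in the cells with the control guide than in every other group. Its reads were 375 and 424 in sgAAVS1 cells, 679 and 699 in untransduced, 678 and 726 in sg1-IRF2 and 672 and 671 in sg2-IRF2 cells. On the deposited log2 scale, which divides the reads by 1 factor per library, its values were 6.38 and 6.17 in sgAAVS1 cells, 6.91 and 6.99 in untransduced, 7.11 and 7.08 in sg1-IRF2 and 6.84 and 6.92 in sg2-IRF2 cells. Both sgAAVS1 libraries lay below the other 6, and the gap between the nearest values of the 2 sides was 0.46. Against the mean of the other 3 groups the log2 difference was -0.70 ± 0.052 (SE, 95% interval -0.80 to -0.59; limma moderated test, two-sided, Benjamini-Hochberg adjusted p = 1.95e-10). This is a level of 61.6% of that in the other groups, 38.4% lower. In bulk RNA, fewer cells with the transcript and less transcript per cell cannot be told apart.

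Each group set alone against sgAAVS1 gave a difference of the same sign. PPP1R12C was at 62.7% of its level in untransduced cells (-0.67 ± 0.063, SE; limma adjusted p = 7.54e-08), where neither group has an IRF2 guide. It was at 56.6% of the level with sg1-IRF2 (-0.82 ± 0.063; limma adjusted p = 4.31e-10) and at 65.9% of that with sg2-IRF2 (-0.60 ± 0.063; limma adjusted p = 2.2e-07). In order the group means were 7.09 ± 0.020 (SD, n = 2) with sg1-IRF2, 6.95 ± 0.058 in untransduced cells, 6.88 ± 0.056 with sg2-IRF2 and 6.27 ± 0.15 with sgAAVS1. The first pair in that order did not differ at the threshold (0.15 ± 0.063, SE; limma adjusted p = 0.144), nor did untransduced cells and sg2-IRF2 (-0.07 ± 0.063; limma adjusted p = 0.763), while the step down to sgAAVS1 did. The widest gap among the groups without the control guide, sg1-IRF2 against sg2-IRF2, was not tested. These comparisons share the sgAAVS1 libraries and are not independent of each other.

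Without the mean-variance trend in the limma fit, the differences from untransduced cells and from sg2-IRF2 kept their size and missed the threshold (adjusted p = 0.0948 and 0.0735). An exact permutation test over the 8 libraries, in which the 2 sgAAVS1 libraries were the lowest of 28 possible pairs, gave two-sided p = 0.0357, the smallest this design allows. Among the 14665 genes tested against the other 3 groups, PPP1R12C ranked 16 by p-value, and 15 genes called at adjusted p under 0.05 had a lower difference. That ranking also holds genes that differ with the IRF2 guides, which sg1-IRF2 and sg2-IRF2 cells carry.

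**Figure D1:**
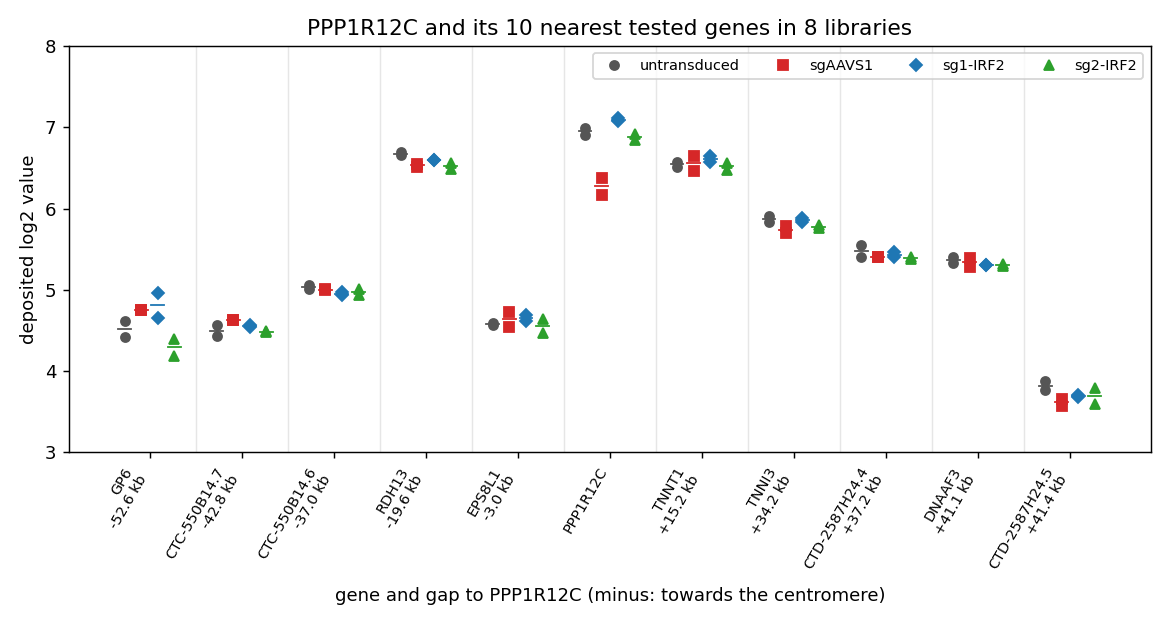
Deposited log2 value (vertical axis) of PPP1R12C and the 5 tested genes nearest to it on each side, ordered along the chromosome with the gap to PPP1R12C in kb. Each point is 1 library, each short line the mean of the 2 libraries of a group. For PPP1R12C both sgAAVS1 squares, 6.38 and 6.17, lie below the other 6 libraries. Among the neighbours GP6 has the widest spread of group means, from 4.29 with sg2-IRF2 to 4.81 with sg1-IRF2.

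Of the 86 genes 41 had a mean log2 value at or above 0 and were tested. The 45 genes not tested had 0 to 31 reads each over the 8 libraries. Of these 32 had 0 reads in every library, which allows up to 3 reads of the 49316908 over all libraries (counting error alone). Among the tested genes 33 are protein coding, 13 have exons that overlap those of a gene on the opposite strand, and 5 share over 50% of their exonic bases with a gene on the same strand. The strand setting of the counting is not known, so reads of such pairs may be split. PPP1R12C, EPS8L1 and TNNT1 have no such partner.

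Set against the other 3 groups, 1 of the 41 tested genes was called in sgAAVS1 cells at limma adjusted p under 0.05, PPP1R12C, and none was called higher. Over all tested genes 2.32% were called (340 of 14665, 212 higher and 128 lower, or 144 higher and 173 lower with library medians aligned). The other 3 groups include sg1-IRF2 and sg2-IRF2, so this share also counts genes that differ with the IRF2 guides. IRF2 itself was called, at 2.99 (limma adjusted p = 7.71e-13). Between sgAAVS1 and untransduced cells IRF2 differed by -0.06 (limma adjusted p = 0.927). In the lower direction 0.873% of all genes and in the higher direction 1.45% were called. As a share, 1 of 41 is near the 2.32% of all genes, so the count says nothing about the neighbourhood as a whole. Unadjusted p was under 0.05 for 3 of the 41, PPP1R12C, GP6 and BRSK1, and for 2130 of all 14665. Both sgAAVS1 libraries lay below the other 6 for 3 of the 41 genes (3.87% of all tested genes) and above them for 1 (3.46%).

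The 40 tested neighbours lay around 0. Their log2 differences from the other 3 groups had a median of -0.0046, against 0.0224 over all tested genes, and 21 of 40 were below 0. For the 11 neighbours within 60 kb the median was 0.0134 (range -0.12 to 0.22), for the 13 from there to 250 kb -0.0532 (range -0.60 to 0.13), and for the 16 farther away 0.0124 (range -0.35 to 0.21). The intervals give a range for what could have been missed, but they rest on a spread pooled over the groups. The sgAAVS1 libraries varied more than the others (chi-square per degree of freedom 1.66 against 0.659 to 0.82), so the intervals may be too narrow. In all 11 neighbours within 60 kb the lower 95% bound was above the upper bound of PPP1R12C (-0.59), and the lowest was -0.37. Over all 40 neighbours this held for 33. The other 7, CTD-2587H24.10, TMEM150B, COX6B2, CTD-2105E13.6, SHISA7, LILRA2 and CTD-2537I9.13, had 46 to 148 reads over all libraries, and a difference as large as that of PPP1R12C was not excluded by their intervals at this depth.

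**Figure D2:**
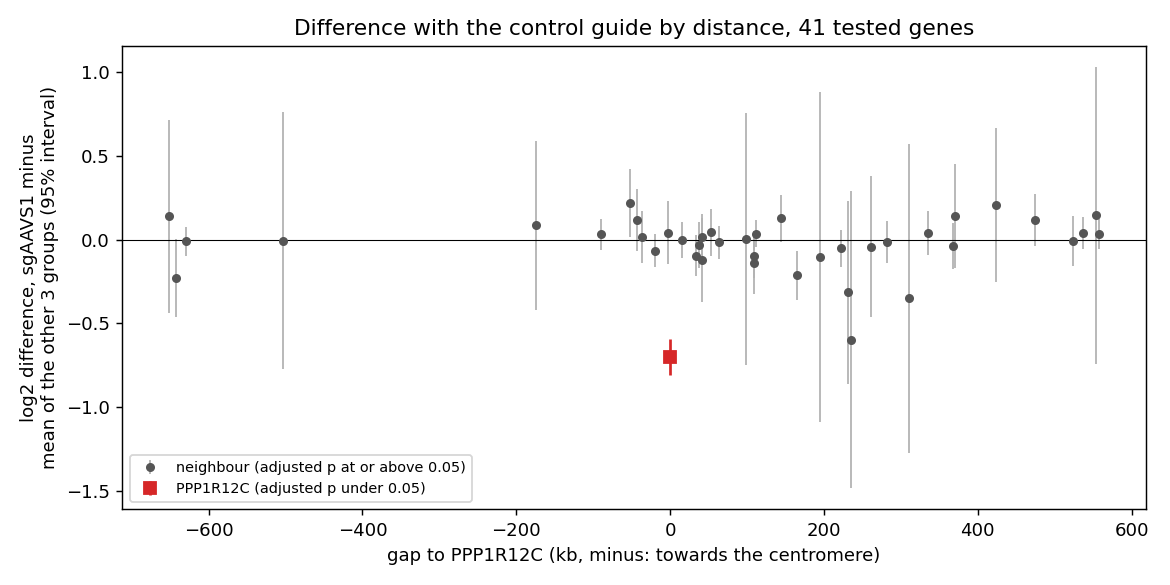
Log2 difference between sgAAVS1 and the mean of the other 3 groups (vertical axis, with 95% intervals) against the gap to PPP1R12C in kb for the 41 tested genes, with the centromeric side to the left. PPP1R12C, the square at -0.70, is the one gene called. The wide intervals belong to genes with few reads.

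EPS8L1, whose protein is related to the actin regulator EPS8, ends 3.0 kb from PPP1R12C on the centromeric side (55072020 to 55087923, plus strand). It had 120 and 137 reads in sgAAVS1 cells, 134 and 133 in untransduced, 121 and 139 in sg1-IRF2 and 147 and 123 in sg2-IRF2 cells, and the groups overlapped. Its difference was 0.04 ± 0.092 (95% interval -0.15 to 0.23; limma adjusted p = 0.903). TNNT1, which encodes troponin T of slow skeletal muscle, begins 15.2 kb away on the telomeric side (55132794 to 55149354, minus strand). It had 452 and 520, 518 and 525, 494 and 511, and 523 and 525 reads in the same order of groups. Its groups overlapped on the log2 scale, and its difference was -0.0027 ± 0.053 (95% interval -0.11 to 0.11; limma adjusted p = 0.990).

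Setting PPP1R12C against these neighbours within each library removes the library factor. PPP1R12C exceeded EPS8L1 by 1.64 and 1.63 in log2 value in the sgAAVS1 libraries and by 2.19 to 2.49 in the other 6, a difference of -0.74 between the group means of that gap. Against TNNT1 the same gap was -0.27 and -0.29 with sgAAVS1 and 0.35 to 0.51 in the other 6. In both cases the 2 groups of libraries did not overlap (exact permutation test over libraries, two-sided p = 0.0357, also adjusted over the 2 comparisons, and the smallest possible). PPP1R12C thus differed by another amount than either neighbour. Both tests reuse the PPP1R12C values that had already separated these libraries, so they are not independent of that result or of each other.

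RDH13, a mitochondrial retinol dehydrogenase gene 19.6 kb away, had a difference of -0.07 (95% interval -0.17 to 0.03; limma adjusted p = 0.552). TNNI3, which encodes troponin I of the heart, lies 34.2 kb away and had a difference of -0.10 (95% interval -0.22 to 0.03; limma adjusted p = 0.478). DNAAF3, an assembly factor of the dynein arms of cilia, lies 41.1 kb away and had a difference of 0.01 (limma adjusted p = 0.958). Each of these 3 genes had a partner with which reads may be shared, since CTC-550B14.6 overlaps RDH13 and CTD-2587H24.4 overlaps TNNI3 on the same strand, and CTD-2587H24.5 lies opposite DNAAF3. Those partners differed by 0.015, -0.03 and -0.12 (limma adjusted p = 0.958, 0.889 and 0.715), so neither the coding genes nor the overlapping transcripts were called.

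GP6, the collagen receptor of platelets, lies 52.6 kb away and is the farthest of the 5 on the centromeric side. Its log2 difference from the other 3 groups was 0.22 (95% interval 0.015 to 0.42; limma adjusted p = 0.298). Its reads were 122 and 159 in sgAAVS1 cells, 121 and 135 in untransduced, 124 and 167 in sg1-IRF2 and 124 and 101 in sg2-IRF2 cells. The sg2-IRF2 libraries were the lowest on the log2 scale, with a mean of 4.29 ± 0.15 (SD, n = 2) against 4.52 ± 0.14 in untransduced cells. Against sg2-IRF2 alone sgAAVS1 was higher by 0.47 ± 0.12 (SE; limma adjusted p = 0.0167), a comparison in which 2 of the 41 were called, GP6 higher and PPP1R12C lower, and 8.16% of all genes, 7.11% higher and 1.05% lower. Over all genes this split was 1042 higher and 154 lower, and turned to 237 higher and 263 lower with library medians aligned. The GP6 call was lost with library medians aligned (0.064), quantile normalization (0.0569), voom (0.0825), no trend (0.178), the other groups averaged (0.212) and without sg2-IRF2 replicate 2 (0.238). CTC-550B14.7, 42.8 kb away and opposite GP6 and RDH13, was the gene with both sgAAVS1 libraries above the other 6, by 0.12 on average (limma adjusted p = 0.597).

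By function, the immunoglobulin-like receptors were the largest group, 18 genes, of which 14 had no reads in any library. These included all of the KIR genes in the set, a family known for receptors of natural killer cells, and FCAR, the receptor for immunoglobulin A. LILRA2, NCR1 and GP6 were tested, with 73 to 1053 reads over the 8 libraries and differences of -0.0064, 0.08 and 0.22. Of 6 NLRP genes 1 was tested. NLRP2, an inflammasome-related gene 89.8 kb away, had 4986 reads and a difference of 0.03 (limma adjusted p = 0.823). The 7 tested muscle, neuronal and cilia genes had a median difference of -0.0027 and ran from -0.35 in SHISA7 to 0.21 in SBK3, both with few reads.

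Levels of different genes can be compared only roughly per length, taken here as the joined exons of all transcripts of a gene. Per exonic kb of the GENCODE 29 models, the highest normalized levels among the tested genes were 46.9 in LENG8, which lies among the leukocyte receptor genes, 45.7 in U2AF2, the large subunit of the U2 splicing factor, and 44.1 in CTD-2587H24.4. CTD-2587H24.4 shares over 50% of its exonic bases with TNNI3 on the same strand, so its level may hold reads of TNNI3. TNNT1 followed with 43.5 and PPP6R1 with 33.7, and PPP1R12C stood at 14.7. LENG8, with 1451 to 1790 reads per library, had a difference of -0.01 (95% interval -0.10 to 0.08), and U2AF2, with 934 to 1068, had 0.04 (95% interval -0.06 to 0.13). Both are over 500 kb from PPP1R12C and among the most precisely measured of the set. The 3 chromatin and transcription genes, among them SUV420H2 (also KMT5C, a methyltransferase for histone H4 lysine 20), ran from -0.05 to 0.12. UBE2S, a ubiquitin-conjugating enzyme of the anaphase-promoting complex, had -0.01 and HSPBP1, a partner of the chaperone Hsp70, 0.13. The 6 tested membrane and lipid genes ran from -0.14 to 0.04, and the 4 mitochondrial and metabolic genes from -0.32 in COX6B2, which had 148 reads, to 0.04. None of these genes was called.

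BRSK1 and LENG8-AS1 are named here after their values were seen, as the neighbours in which both sgAAVS1 libraries were lowest. BRSK1, an AMPK-related kinase of neurons 164.5 kb away, had 160 and 208 reads in sgAAVS1 cells, 228 and 245 in untransduced, 211 and 212 in sg1-IRF2 and 230 and 224 in sg2-IRF2 cells. Its difference was -0.21 ± 0.071 (95% interval -0.36 to -0.07; limma adjusted p = 0.120), and it was called against untransduced cells under quantile normalization alone among the 18 alternatives of that comparison. LENG8-AS1, a transcript 641.9 kb away opposite the start of LENG8, differed by -0.23 ± 0.11 (limma adjusted p = 0.345).

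**Figure D3:**
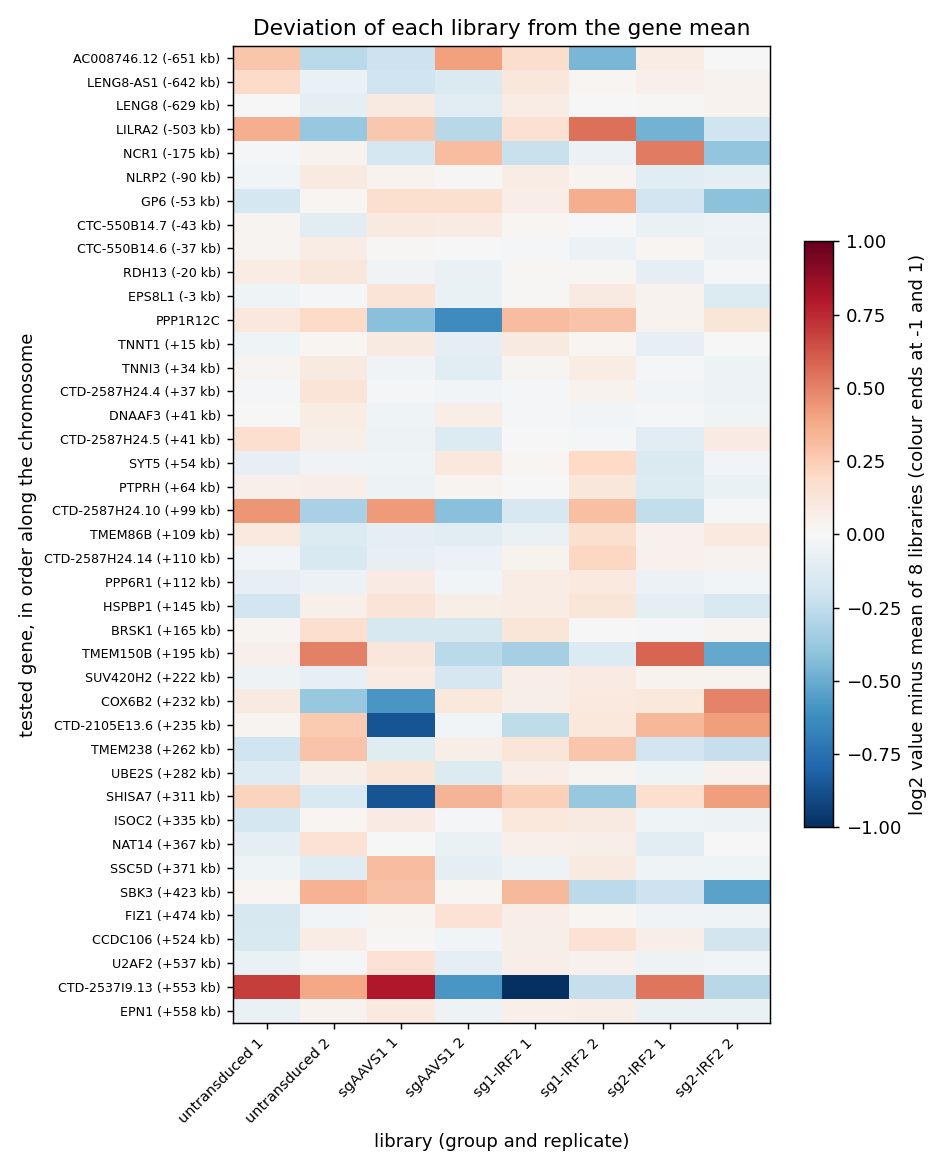
Deviation of each library's log2 value from the gene's mean over 8 libraries (colour, ends at -1 and 1) for the 41 tested genes in order along the chromosome. The row of PPP1R12C has both sgAAVS1 libraries low. Rows with patches in single libraries are genes with few reads, such as SHISA7 and CTD-2537I9.13.

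Against untransduced cells alone, 1 of the 41 genes was called with sgAAVS1, again PPP1R12C, where 4.75% of all tested genes were called (435 higher, 2.97%, and 262 lower, 1.79%, or 302 higher and 346 lower with library medians aligned). The 40 neighbours had a median of -0.0023 and 20 were below 0. Against sg1-IRF2 the same gene was the 1 called (0.825% of all genes, 0.498% higher and 0.327% lower, or 73 and 48 genes, and 82 and 34 with library medians aligned). PPP1R12C thus passed in each pairwise comparison with sgAAVS1, and GP6 in the one with sg2-IRF2.

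The IRF2 guides were each set against untransduced cells, and sg1-IRF2 was not tested against sg2-IRF2. With sg1-IRF2 against untransduced cells 1 of 41 was called, where 9.18% of all genes were (7.12% higher and 2.06% lower). Over all genes this split was 1044 higher and 302 lower, and turned to 352 higher and 431 lower with library medians aligned. This was PPP6R1, a regulatory subunit of protein phosphatase 6, 112.2 kb from PPP1R12C, with 1187 and 1171 reads in untransduced cells and 1148 and 1272 with sg1-IRF2. The median log2 difference over all tested genes was 0.0705, and the PPP6R1 call was lost with library medians aligned, quantile normalization or voom. On the log2 scale both sg1-IRF2 libraries were higher, by 0.16 ± 0.048 (SE; limma adjusted p = 0.0386; 0.00286 to 0.999 over the alternatives). That call was lost without any 1 of the untransduced, sg1-IRF2 or sg2-IRF2 libraries, and PPP1R12C was also called without either sgAAVS1 library (adjusted p = 0.0353 and 0.0334). With sg2-IRF2 against untransduced cells limma called 0 of 41 (3 at unadjusted p under 0.05: RDH13, PTPRH and NLRP2, all lower), where 1.32% of all genes were called (0.0886% higher and 1.23% lower, or 13 and 181 genes, and 21 and 96 with library medians aligned), and voom also called 0. Over all genes 1584 of 14665 had an unadjusted p under 0.05 in that comparison, 1367 of them lower.

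The close relatives of PPP1R12C outside the span, and their catalytic partner, were not called. PPP1R12A and PPP1R12B, the other myosin-targeting subunits of the family, differed from the other 3 groups by -0.08 ± 0.038 (SE; limma adjusted p = 0.334) and -0.06 ± 0.043 (limma adjusted p = 0.572). PPP1CB, the catalytic subunit they bind, differed by -0.0080 ± 0.039 (limma adjusted p = 0.954). PPP1R12A had 1168 to 1622 reads per library and PPP1CB 1319 to 1621, so these intervals are narrow, from -0.16 to -0.0014 for PPP1R12A and from -0.09 to 0.07 for PPP1CB.

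Of 21 genes of myosin phosphatase and of myosin light chain control 19 were tested, and 0 were called higher and 1 lower, DAPK3, where 2.32% of all genes were called and 0.873% were lower. The median of the list was -0.0080, against 0.0224 over all tested genes. DAPK3 encodes a kinase that phosphorylates myosin light chains and the myosin-targeting subunit. It had 365 and 433 reads in sgAAVS1 cells, 528 and 556 in untransduced, 408 and 454 in sg1-IRF2 and 519 and 491 in sg2-IRF2 cells. It was highest in untransduced cells and lowest with sgAAVS1, at -0.21 ± 0.052 (SE; limma adjusted p = 0.0222) against the other 3 groups and -0.33 ± 0.064 (limma adjusted p = 0.00222, but 0.0756 without untransduced replicate 2, 0.165 without the trend and 0.223 with the other groups averaged) against untransduced cells. DAPK3 was also lower with sg1-IRF2 than in untransduced cells, by -0.21 ± 0.064 (limma adjusted p = 0.0376). Its call against the 3 groups was lost without untransduced replicate 2 (0.075), sgAAVS1 replicate 2 (0.155), sg2-IRF2 replicate 1 (0.0579) or replicate 2 (0.0651), with array weights (0.0773), without the trend (0.275) and with the other groups averaged (0.396).

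**Figure D4:**
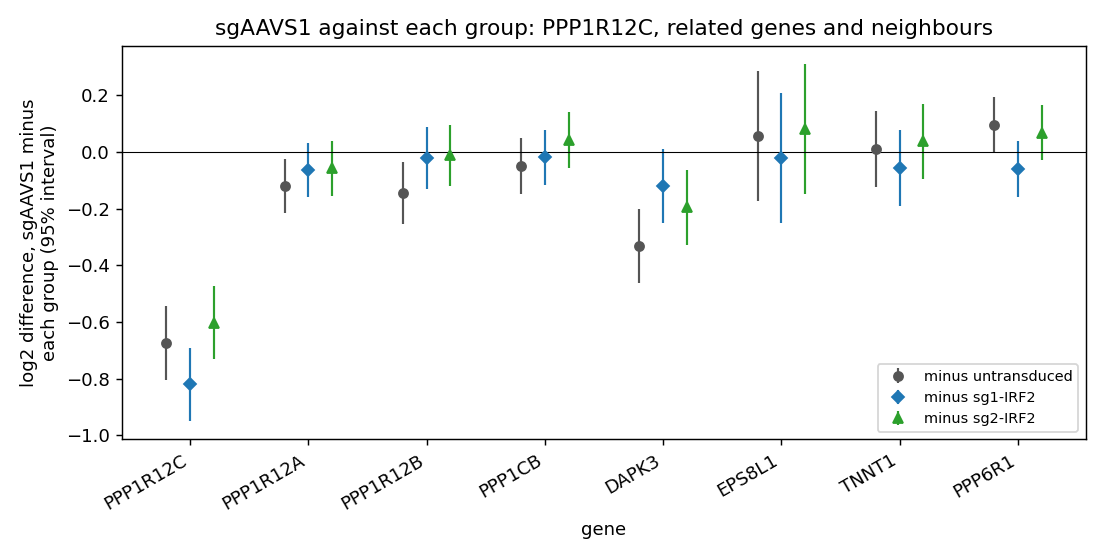
Log2 difference of sgAAVS1 minus each of the other 3 groups (vertical axis, with 95% intervals) for PPP1R12C, 3 related phosphatase genes, DAPK3 and 3 genes of the span. PPP1R12C lies at -0.67, -0.82 and -0.60, and the intervals of its relatives and neighbours lie above its own.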

How the data were processed

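RNA was measured in 8 K562 libraries, 2 in each of 4 groups taken from the labels. Per the labels, ribosomal RNA was depleted and the library kit was a directional one. Cutadapt, Bowtie2 and hg38 are named in the submitters' processing notes. Not given in the sources used here are versions, counting tool, strand setting, treatment of duplicates and annotation release. The authors' deposited values are log2 of reads divided by 1 factor per library. Every value was a whole number of reads (tolerance 0.01 read, 100% of values in all libraries). Genes with 0 reads are listed at the value of 0.9 read. Reads recovered this way gave depth (5248359 to 6738348 per library) and levels per exonic kb. Intervals for counts and limits for 0 reads cover counting error only.

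Group means were fitted to all 8 libraries with limma 3.58.1 in R 4.3.3 (eBayes with a trend of variance on mean, 4 residual and 22.4 prior degrees of freedom) on the deposited log2 values of 14665 genes with a mean at or above 0. Benjamini-Hochberg adjustment ran over those genes, and genes under 0.05 were called. On simulated counts for the main comparison over 14665 genes, 47 to 50 of 50 changed genes were recovered per fold size. The simulation gave all groups the same dispersion, unlike these libraries, and took changed genes only from those with more reads. It therefore does not measure sensitivity in these data or for genes with few reads. Python 3.11.15 with pandas 2.3.3, scipy 1.17.1 and matplotlib 3.10.9 was used otherwise. All 86 genes were matched to GENCODE 29 (81 with the same span), and promoters came from RefSeq (GRCh38.p14), with a window for 51 of 86.

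The span, the myosin list and the tests were chosen with earlier results of these data known. Genes named by rule were PPP1R12C, its 5 nearest tested genes on each side, genes of the span called in the comparisons of sgAAVS1 with the other groups together or with untransduced cells and of either IRF2 guide with untransduced cells, the 5 with the most normalized reads per exonic kb, called genes of the myosin list, and PPP1R12A, PPP1R12B and PPP1CB. Others were named as examples of their function group, with few reads, as overlapping transcripts or after their values were seen. The alternatives were other filters, scalings, weights and test settings, each library left out, and, chosen after seeing the data, voom on recovered reads and the libraries of the other 3 groups averaged.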

Additional observations from a re-analysis of the deposited data

How the results depend on the processing

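For 32 results 559 alternatives were computed, of which 496 kept the call or count, 29 moved a count of genes, 30 lost and 4 gained a call, and 0 reversed a called value. Values called in neither fit changed sign 18 times, in 8 results. PPP1R12C stayed lower with sgAAVS1 in every alternative run, from -0.80 to -0.60 against the other 3 groups (limma adjusted p at most 0.0337). Without the trend it was -0.67 against untransduced cells (adjusted p = 0.0948) and -0.60 against sg2-IRF2 (0.0735), which missed the threshold, and the cause was not tested. Against the 3 groups, genes of the span called higher numbered 0, but 1 without a filter (LILRB1, 7 reads in all) and 0 to 1 with each library left out (U2AF2 without sgAAVS1 replicate 2). Against untransduced cells, 2 were lower under quantile normalization and 0 without the trend. Higher were 1 without a filter and 0 to 3 with each library left out (LENG8, PPP6R1 and U2AF2 without sgAAVS1 replicate 2). For sg1-IRF2 against untransduced cells the count of 1 became 0 without a filter, with medians aligned, quantile normalization, no trend, voom or the other groups averaged, 2 with only the groups compared, and 0 to 4 with each library left out (3 and 4 without sgAAVS1 replicate 1 and 2, each with PPP1R12C among them, and 0 without any single library of the other groups). The myosin list had 0 called with array weights, without the trend or with the other groups averaged, and 0 to 2 with each library left out. The fit with the other groups averaged has 1 residual degree of freedom, so its calls kept or lost say little about stability. Over all genes, 340 calls against the 3 groups became 39 without the trend, 107 with the other groups averaged, 163 with array weights, 888 without a filter and 199 to 829 with each library left out. The 697 calls against untransduced cells became 11, 57, 397, 1184 and 183 to 1456 in the same order. Replicate numbers paired the libraries weakly or not at all (correlation of deviations -0.0794 to 0.216, the highest between sgAAVS1 and sg1-IRF2). With the replicate block PPP1R12C was -0.70 (adjusted p = 6.71e-08), and 299 genes were called against 340. Planned edgeR and DESeq2 fits were not run, since the deposited values are log2. Depth limits the 45 genes not tested and the 7 with wide intervals.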

Other observations

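The 8 genes of the same span that were left out by name, RPL28 and 7 zinc finger genes, all passed the filter on low values. RPL28, a protein of the large ribosomal subunit 267.8 kb from PPP1R12C, had 703 and 839 reads with sgAAVS1 and 732 to 814 in the other 6 libraries, and differed by 0.05 ± 0.044 (SE; limma adjusted p = 0.618). The zinc finger genes differed from the other 3 groups by -0.04 in ZNF580 to 0.31 in ZNF784 (limma adjusted p = 0.827 and 0.381), with ZNF628 at 0.15 (0.459), ZNF524 at 0.10 (0.655), ZNF865 at 0.04 (0.831), ZNF579 at -0.02 (0.918) and ZNF581 at -0.03 (0.882). None was called, and all 8 lie between 267.8 and 517.9 kb from PPP1R12C on the telomeric side.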
